A study of Homo sapiens with 4 samples.

Results

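Peaks that the deposited annotation placed in a 5′ UTR, the transcribed stretch between the start of an mRNA and its start codon, numbered 151 of 6263 peaks (2.41%) in APC ChIP replicate 1 and 171 of 8393 peaks (2.04%) in APC ChIP replicate 2. A peak was a member when its annotation began with the 5′ UTR label, and it was called shared when its centre lay under 400 bp from the centre of any peak in the other list. The 322 members came from 264 separate loci and carried the names of 263 protein-coding genes. In 56 of these loci (21.2%) both replicates had a peak with the 5′ UTR label. At 34 loci the replicate 1 peak had the label and the replicate 2 peak had another, and at 32 loci it was the reverse. The remaining 59 loci had a peak in replicate 1 alone and 83 in replicate 2 alone.

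All libraries came from HCT-116, an established colon carcinoma cell line described by its source label as APC wild-type, CTNNB1ΔSer45, which means intact APC and a β-catenin that escapes degradation. The samples were 2 replicates of chromatin precipitated with a polyclonal antibody to the C terminus of APC and 2 matching replicates of pre-cleared input, all untreated. APC is a tumor suppressor that, in the cytoplasm, helps target β-catenin for destruction, and the experiment mapped the DNA with which it associates. The replicates were prepared months apart, which means that replicate and preparation date cannot be told apart, each library pooled several precipitations, and no precipitation with a control antibody was analysed here. The lists gave positions and widths only, so enrichment and sequencing depth were unknown. The peak threshold had been set by the authors to retain AXIN2, DKK1 and MYC, and a MYC peak is therefore not independent evidence.

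A 5′ UTR carries the landing site of the small ribosomal subunit and the letters through which it scans to the start codon, and in many mRNAs it holds elements that set how often the message is translated. At the level of DNA the first exon lies immediately downstream of the transcription start site (TSS), inside the region of open chromatin where RNA polymerase II begins elongation, and in most human genes it lies within a CpG-rich promoter. The same DNA also holds binding sites for promoter factors. USF and MYC proteins bind the E-box, ETS factors bind a GGAA core, CREB bound to CRE answers cyclic AMP, NRF1 regulates genes of mitochondria and growth, SP1 binds GC boxes and YY1 is often found just downstream of the start. AP-1 and TCF7L2, the partner of β-catenin, are best known from distal enhancers.

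Short stretches around such motifs are shown here because the motif results below turn on them. They come from shared members with the lowest mean width rank that held each motif, were read from GRCh37 (the same assembly as hg19) on the strand of the gene, and have the matched letters in capitals. The E-box of KAT5, an acetyltransferase, lies at chr11:65479476-65479505 on the plus strand and that of RFESD at chr5:94982909-94982938 on the plus strand. The ETS and NRF1 matches of GTF3A, which encodes transcription factor IIIA, lie at chr13:27998741-27998770 and chr13:27998667-27998696 on the plus strand. The YY1 match of NOLC1, a nucleolar chaperone of small nucleolar ribonucleoproteins, lies at chr10:103911949-103911978 on the plus strand. The CRE matches lie at chr6:32939763-32939792 on the plus strand in BRD2, a bromodomain protein, and at chr9:86323136-86323165 on the minus strand in UBQLN1, a ubiquilin. The SP1 match of CCDC85B lies at chr11:65658065-65658094, the AP-1 match of KDM4C, a histone demethylase, at chr9:6757903-6757932 and the TCF7L2 match of RPS26 at chr12:56435730-56435759, all on the plus strand.
KAT5 E-box: cccggtgggcgtCACGTGacggactcagta
RFESD E-box: cacctggacagcCACGTGcagtctcagaac
GTF3A ETS: cgcgcgcgctcCCGGAAGTgtgccggcgtc
GTF3A NRF1: gggcctcctgGCGCATGCGCgatctcccgg
NOLC1 YY1: gcccttaaccAAGATGGCGatacgcgtggg
BRD2 CRE: aatgaagtttaTGACGTCAtcgttgcggct
UBQLN1 CRE: ttcgctaaccgTGACGTCAtctcggtgcgc
CCDC85B SP1: acgacatgcgGCCCCGCCCCggcgcgcgcc
KDM4C AP-1: gtaagcccacgTGACTCAccaagtgcgggc
RPS26 TCF7L2: tcccatgtgcaCTTTGTTccatggataaat

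The members lay just inside the gene. The median distance from peak centre to TSS was 176 bp in replicate 1 and 185 bp in replicate 2, and the smallest distances were 101 and 102 bp. All 554 replicate 1 peaks and all 646 replicate 2 peaks centred at 1 to 100 bp downstream were labelled promoter-TSS, so the annotation left no 5′ UTR peak closer to the start. Of the replicate 1 members, 88 were centred at 101 to 200 bp, 46 at 201 to 400 bp, 13 at 401 to 1000 bp and 4 farther away. The replicate 2 members were spread alike, with 96, 56, 14 and 5. At 101 to 200 bp the 5′ UTR label covered 88 of 273 peaks in replicate 1 and 96 of 294 in replicate 2, and promoter-TSS, exon, intron and the other labels covered the rest. A 5′ UTR peak is therefore 1 of several labels given to peaks at the same distance from a start.

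**Figure D1:**
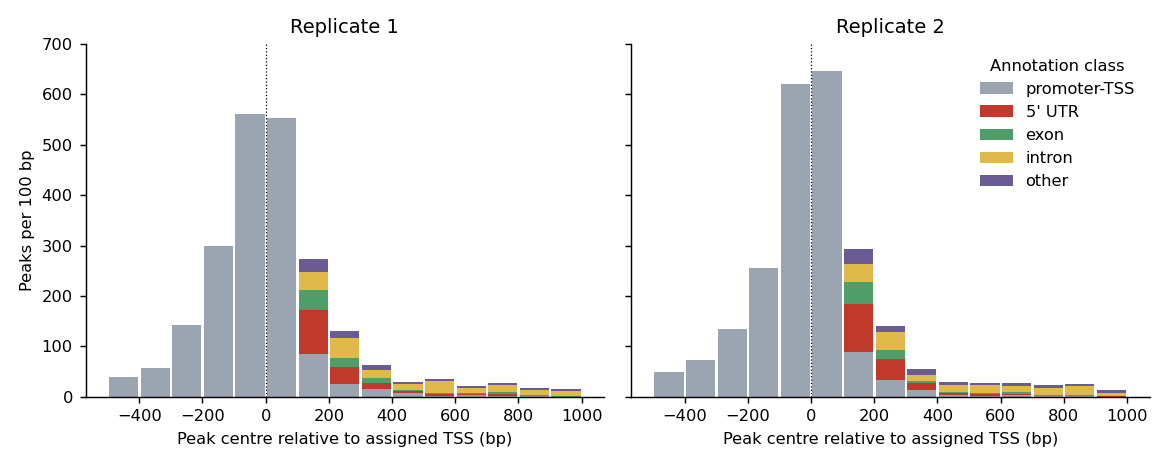
Number of peaks per 100 bp (y axis) against the distance of the peak centre from its assigned TSS in bp (x axis), for replicate 1 (left) and replicate 2 (right), with colours for the annotation class. The 5′ UTR peaks begin beyond 100 bp, with 88 and 96 peaks at 101 to 200 bp. Promoter-TSS peaks fall from 554 and 646 at 1 to 100 bp to 85 and 88 at 101 to 200 bp.

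Many peaks reached past an end of the UTR, and fewer past both. In replicate 1, 64 of 151 members (42.4%) covered the TSS, and in replicate 2, where peaks were wider, 125 of 171 (73.1%) did. GENCODE 44, a second annotation, placed the centre in a coding 5′ UTR exon for 113 replicate 1 members (74.8%) and 126 replicate 2 members (73.7%). Of these, the peak also covered the start codon in 56 (49.6%) and 62 (49.2%), and it ran past the end of the UTR exon in 87 and 106. The TSS and the start codon were both covered in 30 and 46. The UTR exons that held a centre, from any coding transcript, had median lengths of 176 and 212.5 bp. The first-exon 5′ UTR in the canonical transcripts of 19080 coding genes had a median of 108 bp, and 53.2% exceeded 100 bp. No member was centred within 100 bp of its assigned start, so short exons could seldom hold a centre. These lengths are therefore not a like comparison, and nothing is read from the difference. Members on the plus strand numbered 87 and 98, and members on the minus strand 64 and 73.

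The 12 regions that had the 5′ UTR label in both lists and the lowest mean width rank were at genes of several kinds. NOLC1 had a peak of 531 bp in replicate 1 and 1156 bp in replicate 2, and it is the widest of the 12 in replicate 2. CCDC85B, a gene with a single exon, had the widest replicate 1 peak of the set, with 807 bp and 714 bp. RFESD, which encodes a Rieske domain protein, had 459 and 1060 bp. The order of widths thus differed between the lists, as CCDC85B was wider than NOLC1 in replicate 1 and narrower in replicate 2. The 12 were picked for their width over both lists. They therefore cannot show how often a region wide in one list was narrow in the other. MC1R, the melanocortin receptor that sets pigment type in melanocytes, had 517 and 868 bp, and TMEM242, a membrane protein gene, had 516 and 806 bp. TMEM242 lay farthest into its gene among the 12, with centres at 749 and 656 bp. GTF3A had 587 and 722 bp, and GTF3C5, a subunit of transcription factor IIIC, had 591 and 701 bp.

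The centres of the GTF3A peaks, chr13:27998567-27999154 and chr13:27998498-27999220, were 1.5 bp apart, the closest of all shared members. RPS26, a protein of the small ribosomal subunit, had 540 and 752 bp, and ADK, adenosine kinase, had 613 and 691 bp. DUSP28, an atypical phosphatase, had 496 and 772 bp, TMEM185B, a membrane protein gene with a single exon, had 477 and 697 bp, and ZNRF2, a ubiquitin ligase, had 323 and 1097 bp. At 9 of the 12 the replicate 1 peak crossed the TSS. At TMEM242, GTF3C5 and ZNRF2 it started downstream, as the plot of extents shows.

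**Figure D2:**
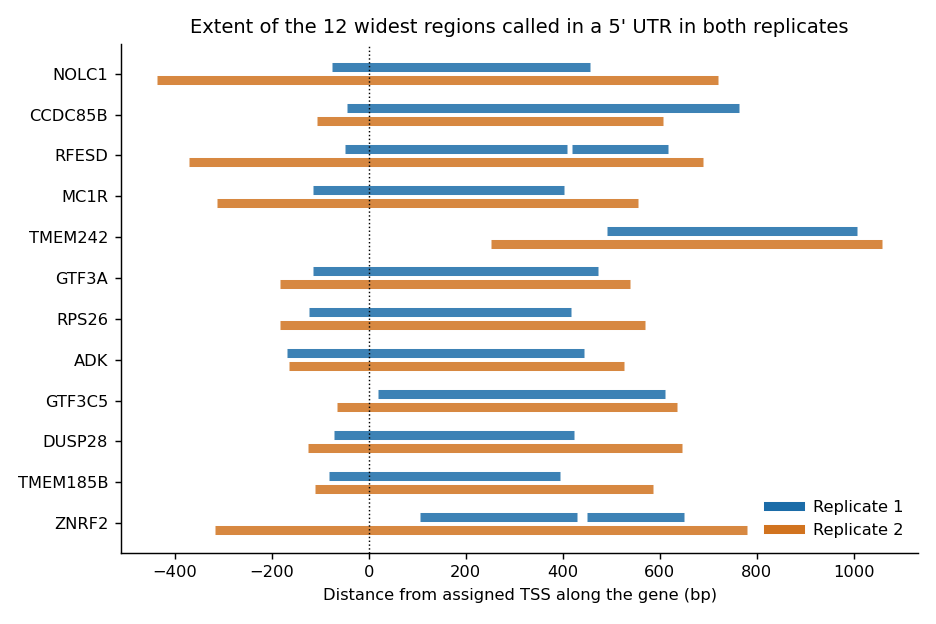
Extent of each peak in bp from its assigned TSS along the gene (x axis) for the 12 named regions, in replicate 1 (blue) and replicate 2 (orange). CCDC85B is the region with the wider peak in replicate 1 (807 against 714 bp), and RFESD and ZNRF2 each have 2 replicate 1 peaks under 1 replicate 2 peak.

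Members were found in both replicates at shares that the test did not separate from those of other peaks. Of 151 replicate 1 members, 92 (60.9%, 95% Clopper-Pearson interval 52.7 to 68.8) had a replicate 2 centre under 400 bp away, where the share over all replicate 1 peaks was 63.6%. Against all other replicate 1 peaks, with 63.7%, the odds ratio was 0.889 (0.632 to 1.26; Fisher's exact test, two-sided, p = 0.494, Benjamini-Hochberg adjusted p = 0.544 over 11 comparisons). Of 171 replicate 2 members, 88 (51.5%, 43.7 to 59.2) were shared, where the share over all replicate 2 peaks was 45.5%. The other replicate 2 peaks had 45.4% (odds ratio 1.28, 0.932 to 1.75, Fisher's exact p = 0.121, adjusted p = 0.254). Neither difference passed. GENCODE labels took in 871 replicate 2 peaks, of which 126 were members. With them the replicate 2 shares were 52.9% against 44.6% and did pass (Fisher's exact test, adjusted p = 2.24e-05). The wider 50% of peaks, given with the widths, moved the other way. Intervals cover counting error only, and p-values here describe the spread over regions of 2 cultures, since regions are not independent replicates.

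Promoter-TSS peaks, the class most like the members, were shared in 1217 of 1880 cases in replicate 1 (64.7%, Fisher's exact test against the members, adjusted p = 0.461) and in 1164 of 2038 in replicate 2 (57.1%, adjusted p = 0.27). At 101 to 1000 bp from the TSS, where all labels occur, 60.5% of 147 members were shared in replicate 1, beside 58.7% of 143 promoter-TSS peaks, 48.7% of 78 exon peaks and 52.3% of 174 intron peaks. In replicate 2 the shares were 50.6% of 166 members, 52.4% of 145 promoter-TSS peaks, 46.7% of 75 exon peaks and 47.0% of 164 intron peaks. Within this range intron peaks lay farther in, at medians of 358.5 and 392.5 bp against 173 and 184 bp for the members. None of the 4 differences from exon and intron peaks passed Fisher's exact test (adjusted p from 0.288 to 0.581) and the smallest unadjusted p was 0.0926. The part of each list with the 5′ UTR label, 2.41% and 2.04%, also did not pass between lists (Fisher's exact test, adjusted p = 0.254).

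**Figure D3:**
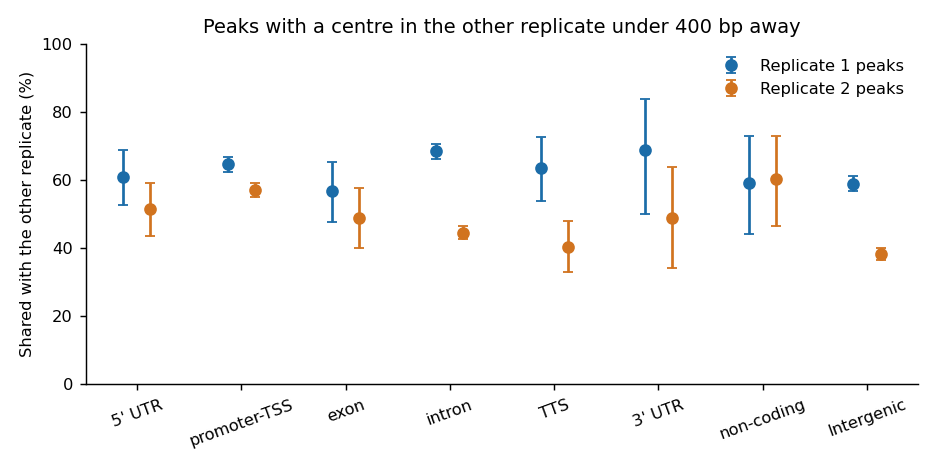
Share of peaks with a centre of the other replicate under 400 bp away in % (y axis) by annotation class (x axis), for replicate 1 (blue) and replicate 2 (orange). Bars are exact 95% intervals, which for the 5′ UTR peaks (60.9% and 51.5%) overlap those of promoter-TSS peaks (64.7% and 57.1%).

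Shared members mostly sat close to their partner. The median distance between centres was 68 bp for replicate 1 members, with 37 of 92 under 50 bp and 67 under 100 bp, and 61.75 bp for replicate 2 members, with 38 of 88 under 50 bp and 67 under 100 bp. The unshared members were not near misses. Their nearest peak in the other list was a median of 82597 bp away in replicate 1 and 141900 bp in replicate 2, and it was over 50000 bp away for 38 of 59 and 59 of 83. At the limit, P4HB (399 bp) and a second peak of RFESD (359 bp) were just inside in replicate 1, and HNRNPD (393 bp) and CYB561 (370.5 bp) in replicate 2. Just outside were UVRAG (458.5 bp, still overlapping its neighbour) and POLB (547.5 bp) in replicate 1, and CLOCK (622 bp) and PHF21A (982 bp) in replicate 2.

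The partner of a shared member did not always have the same label. Of 92 shared replicate 1 members, 58 had a 5′ UTR partner, 27 a promoter-TSS partner, 5 an exon partner and 2 an intron partner. Of 88 shared replicate 2 members, the numbers were 56, 24, 2 and 6. Members with a promoter-TSS partner were centred at a median of 126 bp in replicate 1 while the partner was centred at 28 bp, as against 122.5 and 56.5 bp in replicate 2. The limit of 100 bp, within which no peak downstream of a TSS had the 5′ UTR label, lay between these medians. Promoter-TSS labels also occurred beyond it, for 85 and 88 peaks at 101 to 200 bp. Among 91 shared replicate 1 members measured to the same gene as their partner, the partner lay farther downstream in 34 and nearer to the start or upstream in 57.

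Width separated the shared members from the rest. Shared replicate 1 members had a median width of 381.5 bp and unshared ones 270 bp (permutation test of 100000 resamples, two-sided, p = 4e-05, adjusted p = 0.00044). Those of replicate 2 measured 600 and 511 bp (permutation p = 0.00312, adjusted p = 0.0172), a difference that no longer passed with centres under 100 bp (63 bp, adjusted p = 0.208) or in the wider 50% of each list (61 bp, adjusted p = 0.161). Cut by the width terciles of the whole list, 36.7%, 65.7% and 85.7% of narrow, middle and wide replicate 1 members were shared, beside 43.5%, 65.0% and 86.6% of promoter-TSS peaks. In replicate 2 the steps were 32.5%, 49.3% and 67.2%, beside 31.0%, 55.8% and 74.6%. Over all members, widths ran from 123 to 826 bp in replicate 1 with a median of 329 bp (promoter-TSS 366 bp, permutation test, adjusted p = 0.198) and from 139 to 1519 bp in replicate 2 with a median of 543 bp (promoter-TSS 571 bp, adjusted p = 0.254). Those last differences did not pass.

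Widths of the same region in the 2 lists were hardly related. Of the 92 shared replicate 1 members, 83 (90.2%) had a wider peak in replicate 2, with a median ratio of 1.48. Across these 92 regions Pearson's r of the log10 widths was 0.03 and Spearman's rho 0.05, where 1217 shared promoter-TSS peaks had 0.42 and 0.40. Taken from the replicate 2 list, the 88 members had 0.16 and 0.17 and 1164 promoter-TSS peaks 0.43 and 0.41. These values describe regions of the same libraries and carry no test. Both lists were also cut to their wider 50% and matched again. Then 50.8% of 61 members were shared in replicate 1 against 69.2% of other peaks (Fisher's exact test, adjusted p = 0.0172), and 37.8% of 90 in replicate 2 against 51.2%, which did not pass (adjusted p = 0.0508). Against promoter-TSS peaks under the same limit neither replicate passed (Fisher's exact test, adjusted p = 0.0577 in both). DUSP6 is an example, with 248 bp in replicate 1 and 808 bp in replicate 2.

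**Figure D4:**
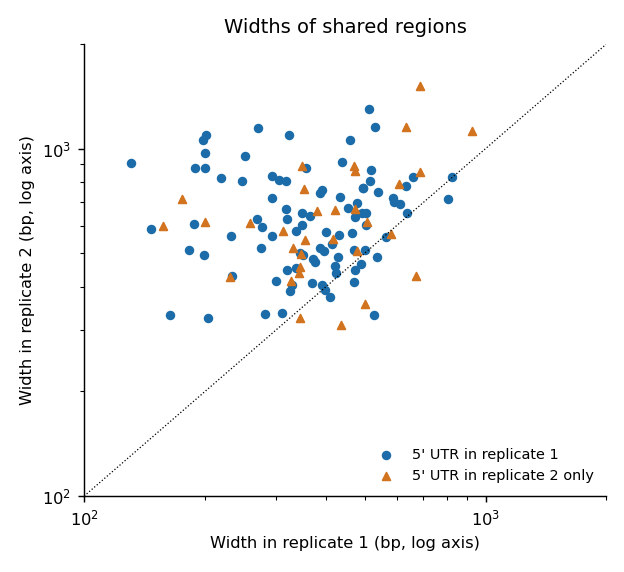
Width in replicate 2 against width in replicate 1 of the same shared region, both in bp on log axes, with a dotted line of equal width. Blue points are the 92 members of replicate 1, of which 83 lie above the line, and orange triangles are members by the replicate 2 label only. The cloud has no clear slope (Pearson's r 0.03 over the blue points).

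Some wide members had no counterpart at all. In replicate 1 the 4 widest unshared members were CASC3 (564 bp), a core factor of the exon junction complex, MRPS15 (510 bp), a mitochondrial ribosomal protein, OSBP (501 bp), an oxysterol-binding protein, and PABPN1 (492 bp), the nuclear poly(A)-binding protein. In replicate 2 they were PRKAR1A (1050 bp), a regulatory subunit of protein kinase A, USP1 (984 bp), a deubiquitinase, SRSF4 (872 bp), a splicing factor, and MDC1 (798 bp), a DNA damage mediator. The nearest peak in the other list was between 19112 bp (PABPN1) and 1086540 bp (USP1) away.

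Nearly all members were in the first exon, 148 of 151 and 167 of 171. The 3 later-exon members of replicate 1 were all shared, as were 3 of 4 in replicate 2, numbers too small for the test to separate from first exons (Fisher's exact p = 0.281 and 0.621). METTL15, a methyltransferase gene, had exon 2 peaks 2120 and 2044 bp from the TSS in the 2 lists. ATP2B4, a plasma membrane calcium pump, had exon 2 peaks of 501 and 512 bp with centres 58.5 bp apart. The annotation named them after the small nucleolar RNA gene SNORA77, whose start is 46683 and 46624 bp away. PAQR5, a progestin receptor, had an exon 2 peak at 23029 bp in replicate 2 with an intron partner 83.5 bp away. SLC37A1, a sugar phosphate transporter, had an exon 3 peak at 18760 bp, and it was unshared.

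The gene named by nearest TSS was not the gene of the UTR for 4 members of replicate 1 and 6 of replicate 2. The DUS2 peaks lay in the UTR of DDX28, a mitochondrial helicase, with centres 26.5 bp apart. The PSD peak of replicate 2 lay in FBXL15, the HARS2 peak in HARS1, the PRR3 peak in GNL1, the TSTD2 peak in NCBP1 and the FAM212B peak in DDX20. At SMN1, the survival motor neuron gene, replicate 1 had a peak of 632 bp at chr5:70220574-70221206 and one of 658 bp at chr5:69345130-69345788 in SMN2. The 387 aligned bases of their 400-bp windows were identical, so reads from these bases cannot be assigned to a copy and both values are uncertain. PDE4B, a phosphodiesterase, had 2 members in replicate 2 with centres 22348 bp apart, the first shared (638 bp) and the other unshared (786 bp).

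The DNA under the members was as rich in G and C as gene starts in general. The median GC content of a 400-bp window on the centre was 66.5% in replicate 1 and 66.25% in replicate 2, beside 65.6% and 64.25% for promoter-TSS peaks and 53.0% and 47.5% over all peaks. The same distance into 19540 coding genes, 181 bp past the TSS, gave 65.75%. The median observed over expected ratio of CpG was 0.866 and 0.872 for the members and 0.448 and 0.300 over all peaks. Promoter-TSS peaks had 0.859 and 0.848, and exon peaks at 101 to 1000 bp from the TSS 0.869 and 0.886, so the ratio was not particular to the members.

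Motif matches set the members apart from the pooled peaks outside promoters, most of them intron or intergenic peaks. AP-1 (TGACTCA or TGAGTCA) matched 4 of 151 windows in replicate 1 (2.65%) and 8 of 171 in replicate 2 (4.68%), against 37.4% and 37.5% of peaks that were neither 5′ UTR nor promoter-TSS (odds ratios 0.0456 and 0.0817, adjusted p = 9.13e-23 and 1.32e-22, Fisher's exact test over 20 tests). TCF7L2 (CAAAG after 2 letters that are each A or T) matched 11.9% and 11.1% against 38.5% and 39.1% (adjusted exact p = 2.76e-12 and 4.54e-15). At the same place in all coding genes AP-1 matched 2.94% of windows and TCF7L2 11.2%, near the values of the members. Peaks of other labels at 101 to 1000 bp from the TSS were also low in AP-1. It matched 1.28% and 2.67% of exon peaks there, and 7.47% and 9.15% of intron peaks, in replicates 1 and 2. TCF7L2 matched 0% and 6.67% of these exon peaks and 16.1% and 11.6% of these intron peaks. Differences from these peaks were not tested for motifs. KDM4C, with 1 match, and SPATA12, with 2, held AP-1 letters in both lists, and the other matches were at unshared members.

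The promoter motifs went the other way. ETS (CCGGAAGT) matched 13.9% and 15.8% of members against 1.39% and 1.10% of the remaining classes (odds ratios 11.4 and 16.9, adjusted exact p = 2.43e-13 and 2.74e-20). SP1 matched 26.5% and 23.4% against 4.75% and 3.41% (adjusted exact p = 2.12e-17 and 3.47e-20). The E-box, listed here as USF (CACGTG), matched 25.2% and 21.6% against 12% and 10.3% (adjusted exact p = 1.7e-05 and 2.62e-05). CRE (TGACGTCA) matched 5.30% and 7.02% against 0.922% and 0.485% (adjusted exact p = 0.000184 and 1.19e-09). In replicate 1 the CRE difference did not pass among the wider 50% of peaks (adjusted exact p = 0.382). NRF1, EGR1 (GCGGGGGCG or GCGTGGGCG) and YY1 (AAGATGGCG, which holds the letters ATG) were also higher in the members of both lists, with odds ratios from 5.58 to 11.4. NFY (CCAAT) was at 31.8% and 38.0% against 39.7% and 41.2% and passed in neither list. Members were richer in G and C than all intron and all intergenic peaks, though not than exon peaks of replicate 1 (median 66.5% against 68.5%). Intron peaks at 101 to 1000 bp from the TSS had medians of 66.75% and 66.25%, equal to those of the members in that range. The E-box was in 28.7% and 37.2% of these intron peaks and in 24.4% and 28% of exon peaks in that range. These shares were close to those of the members or higher. SP1 was lower than in the members, at 21.8% and 19.5% of these intron peaks and 15.4% and 20% of these exon peaks. ETS and CRE were also lower in both labels, with ETS in 5.17% and 3.05% of these intron peaks. Motif differences from these peaks were not tested. The part of base composition in the differences from the remaining classes was not tested.

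Beside all coding genes at the same place, the member shares of some motifs were far apart and of others close. The E-box was in 5.93% of gene windows, ETS in 3.17%, CRE in 0.686%, SP1 in 10.0%, NRF1 in 2.29%, YY1 in 3.20%, EGR1 in 7.65% and NFY in 23.4%. Each motif was searched on both strands, and EGR1 and SP1 matches can overlap in a GC-rich stretch. Against windows 5 kb to each side of the 92 shared replicate 1 members, 8 of 10 motifs passed. The test took members and flanks as independent and left out their pairing. The E-box was in 35.9% of members and 5.98% of flanks (odds ratio 8.80, adjusted exact p = 6.94e-09), and TCF7L2 was lower in the members (12% against 26.1%, adjusted p = 0.00974). NRF1, EGR1, YY1 and CRE were in none of the 184 flanking windows. The GC content of the flanks was not measured, and the part of base composition in these differences was not tested. A match is a description of letters, and binding was not measured.

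No motif passed between shared members and shared promoter-TSS peaks. Over 10 motifs, 0 passed Fisher's exact test after adjustment and 1 had an unadjusted p below 0.05, NFY with 29.3% against 41.0% (p = 0.0278, adjusted p = 0.278). GENCODE labels gave another set, in which 66 of 504 shared regions were members, and left 826 of 1217 shared promoter-TSS peaks. Between these sets NFY did pass, with 35.1% of 504 against 43.3% of 826 (Fisher's exact test, adjusted p = 0.0328). The E-box was in 35.9% and 34.5%, ETS in 15.2% and 15.8%, SP1 in 22.8% and 29.6% and CRE in 6.52% and 5.01%. AP-1 was in 2.17% and 5.83%, TCF7L2 in 12% and 10.5%, NRF1 in 6.52% and 5.51%, EGR1 in 9.78% and 9.61% and YY1 in 6.52% and 4.6%. In the shared members, 41 E-box matches lay 2 to 196 bp from the centre with a median of 98 bp, and 15 ETS matches a median of 91 bp.

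**Figure D5:**
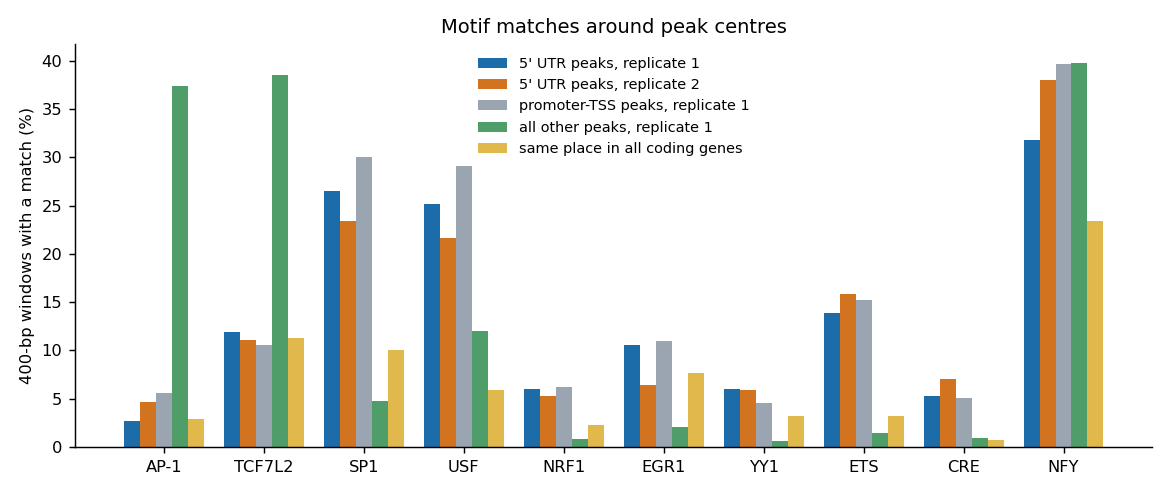
Share of 400-bp windows with a motif match in % (y axis) for 10 motifs (x axis), in 5′ UTR peaks of each replicate, promoter-TSS peaks and all other peaks of replicate 1, and windows at the same place in all coding genes. AP-1 is at 2.65% and 4.68% in the members and 37.4% in the other peaks, while ETS is at 13.9% and 15.8% against 1.39%.

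Between shared and unshared members the E-box was the motif that passed, in replicate 1. It was in 33 of 92 shared members (35.9%) and 5 of 59 unshared members (8.47%), with an odds ratio of 6.04 (2.11 to 21.0, Fisher's exact test, p = 0.000106, adjusted p = 0.00212 over 20 tests). In replicate 2 it was in 21 of 88 (23.9%) and 16 of 83 (19.3%), which did not pass (exact p = 0.578, adjusted p = 1). Whether the replicates differ in this was not tested. With shared set at under 200 bp, the replicate 1 shares were 35.0% and 14.1% and the adjusted p was 0.0897. Promoter-TSS peaks had the E-box in 34.5% of shared and 19.2% of unshared peaks in replicate 1, and in 35.4% and 20.8% in replicate 2. Shared members were also the wider ones, and the part of width was not tested. KAT5, at chr11:65479180-65480006, was the widest replicate 1 member with 826 bp, had 829 bp in replicate 2 and held 3 E-boxes, the one printed above centred 17 bp past the TSS.

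The members were at 149 of 19779 protein-coding genes in replicate 1 (0.753%), at 170 in replicate 2 (0.859%) and at 263 in either list (1.33%). For comparison, 2458 coding genes (12.4%) had a promoter-TSS peak in either list. Genes of translation were among the members. Of 85 cytosolic ribosomal protein genes, 6 (7.06%) had a member, RPS26 in both lists, RPLP1, RPS24, RPL6 and RPL10 in replicate 1 and RPL27A in replicate 2. The peaks of RPLP1 (338 bp), RPS24 (232 bp) and RPL27A (890 bp) were shared, and those of RPL6 (291 bp) and RPL10 (225 bp) were not. In the same list 55 genes (64.7%) had a promoter-TSS peak, so a high count at these genes was not limited to the UTR label.

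Of 117 translation factors and tRNA synthetases, 9 (7.69%) had a member, beside 1.33% of all coding genes, and 37 (31.6%) had a promoter-TSS peak, beside 12.4%. GARS1, glycyl-tRNA synthetase, listed as GARS, had it in both lists with 387 and 745 bp and centres 40 bp apart. EIF4B, which stimulates the helicase that unwinds 5′ UTRs, had 251 bp in replicate 1 with a partner of 954 bp 20.5 bp away. EIF3D, an EIF3 subunit that binds the mRNA cap, had 792 bp in replicate 2 with a promoter-TSS partner of 610 bp. EIF1, which guards start codon choice, had 209 bp in replicate 1 and no partner within 122831 bp. In all, 5 of these 9 genes had a shared member, beside 122 of the 263 coding genes with a member, and nothing is read from this count.

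Splicing factors and RNA-binding proteins had members at 9 of 194 genes (4.64%, beside 1.33% of all coding genes) and promoter-TSS peaks at 68 (35.1%, beside 12.4%). DDX1, an RNA helicase, had 337 and 453 bp with centres 49 bp apart, and SNRPB, a core protein of the spliceosome, had 269 bp in replicate 1 with a partner of 629 bp. SRSF7 (623 bp), SRSF4 and SNRPD1 (588 bp) were in replicate 2 and unshared. Chromatin regulators had members at 7 of 166 genes (4.22%) and promoter-TSS peaks at 28 (16.9%). KDM4C had 358 and 877 bp with centres 9.5 bp apart, SMARCD2, a subunit of the SWI/SNF remodeler, had 489 and 467 bp with centres 14 bp apart, and BRD2 had 219 bp with a partner of 822 bp. SETD1A, a histone methyltransferase, had 329 bp in replicate 2 and was unshared. Mitochondrial ribosomal proteins had members at 3 of 77 genes (3.90%) and promoter-TSS peaks at 36 (46.8%), with MRPL1 in both lists (305 and 810 bp).

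In the lists of WNT signaling and of the immediate early response, 4 genes had a member. Of 40 WNT targets and components, a list without MYC, 1 (2.5%) had a member and 7 (17.5%) had a promoter-TSS peak. It was TCF7L2, with 527 bp in replicate 1 centred 104 bp from the TSS and a promoter-TSS partner of 332 bp that was 81.5 bp away. Of 40 AP-1 and immediate early genes, 3 (7.5%) had a member and 20 (50%) a promoter-TSS peak, beside 1.33% and 12.4% of all coding genes. DUSP6, a phosphatase that restrains ERK, was shared with centres 27 bp apart. JUNB, an AP-1 subunit, had 321 bp in replicate 1 with a partner 289 bp away, and ZFP36L1, an mRNA decay factor, had 511 bp in replicate 2 and no partner within 3067.5 bp. Among the candidates of the study, which chose them on these samples, GPRC5A had members in both lists of 350 and 495 bp, centred 408 and 481 bp past the TSS and 73.5 bp apart. Among its control loci MYC, a growth regulator that the paper counts as a known WNT target, had a member of 695 bp in replicate 2 at 238 bp. The nearest replicate 1 centre, of a peak labelled as a transcript end, was 5854.5 bp away.

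Marker genes of other cell types had next to no members. None of the 16 neuron, 16 hepatocyte or 16 immune cell markers had one in either list, nor did the 20 colon epithelium genes. Of 16 fibroblast markers VIM, which carcinoma cells can also express, had a peak of 508 bp in replicate 2, and it was unshared. With lists this short, 0 of 16 is close to what the share of 1.33% over all coding genes gives, and nothing is read from it.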

How the data were processed

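The authors aligned single-end reads to hg19 with BWA, called peaks with MACS2 in each ChIP replicate against its own input and annotated them with RefGene. Their versions are not given in the sources used here. Positions, widths and distances, in bp, are as deposited. The deposited score column equalled end minus start plus 2 in all 6263 and 8393 rows, so other units such as enrichment, p-values or counts were not analysed, and depth is unknown. A deposited table of centre distances gave the same shared call for all 151 replicate 1 members, with distances within 2 bp.

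Shares were compared with Fisher's exact test and median widths with a permutation test (two-sided, 100000 resamples, smallest p 1e-05), Benjamini-Hochberg adjusted over 11 comparisons and over the 10 motifs. Motifs were searched in 400-bp windows. Sequence and GENCODE 44 were on GRCh37, and gene names followed RefSeq. For E-boxes in shared against unshared members, motifs against the remaining classes, and labels at 101 to 1000 bp, the tests were chosen after seeing the data. They were adjusted over 20, 20 and 4 tests. Named were the 12 regions with the lowest mean width rank, the study's loci, members at the 400 bp limit, farthest from a TSS, doubled in a gene or widest unshared, up to 4 per gene list, and 2 per motif. The members and the 19 gene lists were chosen with earlier results of these data known. Scripts were tested on simulated data. Python 3.11.15, numpy 2.4.6, scipy 1.17.1, pandas 2.3.3, pysam 0.24.0 and matplotlib 3.10.9 were used. Alternatives were other distance limits, overlap, the wider 50% of peaks, no satellite peaks, downstream promoter peaks, GENCODE labels, whole peaks, flanking windows and each replicate alone.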

Additional observations from a re-analysis of the deposited data

How the results depend on the processing

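No paired analysis was possible because the replicates themselves were compared and the input libraries had no peak list that was analysed here. Of 78 alternative values for the main comparisons, 63 kept their direction and side of the threshold, and of 210 for single motifs, labels and E-boxes, 177 did. In the tests of shared against unshared width in replicate 1, all alternatives kept the call, with differences from 81.5 to 138 bp. With centres under 100 bp, the difference in shared share from other peaks in replicate 1 turned to 2.00 percentage points and that from promoter-TSS peaks to 0.701, and the width difference in replicate 2 no longer passed (63 bp). With the wider 50% of each list, shared shares differed from other peaks by -18.4 points in replicate 1, which passed, and by -13.5 in replicate 2. Under the same limit the difference between lists in the share of 5′ UTR peaks turned to -0.196 points, the width difference from promoter-TSS peaks in replicate 2 to 7 bp, the shared against unshared difference in replicate 2 was 61 bp and did not pass, and first exons exceeded later exons by 51.7 and 38.6 points, with 1 and 2 later-exon peaks. GENCODE labels took in 871 replicate 2 peaks, of which 126 were members. With them the shared share in replicate 2 was 8.29 points above other peaks and differed by -5.62 points from promoter-TSS peaks. The 5′ UTR share differed between lists by 2.48 points. All 3 passed. The count of motifs that differed from promoter-TSS peaks was 1 with GENCODE labels, and this motif was NFY (35.1% against 43.3%). With flanking windows in place of promoter-TSS peaks, 8 motifs differed.

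None of the motif differences from promoter-TSS peaks had passed in the main setting, and several changed sign. For USF they became -6.08 points (under 100 bp), -4.30 (GENCODE) and -3.24 (whole peak). For NRF1 they became -0.701 (under 200 bp), -1.29 (GENCODE) and -0.399 (whole peak). For EGR1 they became -0.481 (under 1000 bp) and -2.11 (GENCODE). For ETS they became 1.5 (under 100 bp) and 4.85 (GENCODE), and for CRE -2.36 (wider 50%) and -0.323 (GENCODE). The differences from flanking windows, another comparison, had the opposite sign for ETS (14.1), TCF7L2 (-14.1) and SP1 (21.2). With every member of one replicate in place of shared members, the differences ran from -7.51 to -3.93 points for USF, -1.31 to -0.263 for NRF1, -1.07 to -0.361 for EGR1, and -1.36 to 1.41 for ETS. NFY against the remaining classes in replicate 2 became 1.70 points with whole peaks. The cause of these changes was not tested.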

Other observations

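Several other gene groups had members at or near the share of all coding genes (1.33%). Zinc finger (ZNF) genes, which encode repressors of transposons and other DNA-binding proteins, had members at 8 of 512 genes (1.56%), with ZNF165 in both lists. Ubiquitin and proteasome genes had 6 of 400 (1.5%), and 2 of these were shared. Vesicle and membrane traffic genes had 4 of 292 (1.37%). STX6, a syntaxin of the trans-Golgi, had peaks of 311 and 337 bp with centres 10 bp apart and an E-box in both windows. Cytoskeleton and adhesion genes had 4 of 411 (0.973%), and CLDN7, a tight junction claudin of epithelia, had 283 and 334 bp with centres 44.5 bp apart. Cell cycle and DNA replication genes had 3 of 129 (2.33%), CDK7, CDK17 and E2F8, none of them shared. Among all 263 coding genes with a member, 122 had a shared one, and nothing is read from the small shared counts of these groups.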
